A study of Caenorhabditis elegans with 24 samples.

Results

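The cytosolic ribosomal protein genes of *C. elegans* were examined as a group, taken as every gene of the count table whose WormBase symbol begins with rpl- or rps- and continues with a digit. This rule found 78 of the 46934 genes in the table, 47 of the large ribosomal subunit (rpl-) and 31 of the small subunit (rps-). A gene was tested when it had at least 10 counts in at least 3 libraries, which 77 of the 78 genes and 15256 genes in all passed. The exception was *rpl-42*, with 0 to 6 counts in 22 libraries, 37 counts in untreated *hsf-1(sy441)* replicate 3 and 41 counts in heat-shocked *hsf-1(sy441)* replicate 3.

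The study sequenced polyadenylated RNA from whole animals, about 800 day 1 adults per sample, to ask how heat-shock (HS) and the heat-shock factor gene *hsf-1* shape the transcriptome. N2 is the wild-type strain, from which every other strain was derived. The *hsf-1FL* line overexpressed full-length *hsf-1* in neurons from the *rab-3* promoter, and the *hsf-1CTD* line overexpressed in the same way an *hsf-1* that lacks its C-terminal part. The *hsf-1(sy441)* mutant carries that C-terminal deletion in its own *hsf-1* gene and thus in every cell. Animals of the 4 genotypes ate HT115 bacteria, and each genotype had 3 untreated (UT) and 3 heat-shocked replicates, giving 24 libraries. Heat-shocked animals were held at 34 °C for 2 h and given 1 h at 20 °C to recover. Since the RNA came from whole animals, fewer cells of a type and less RNA per cell cannot be told apart here.

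A ribosome consists of a small subunit, which holds the mRNA and reads its codons, and a large subunit, which joins amino acids and releases the growing chain through a tunnel. Each subunit is built of ribosomal RNA and, for most of its proteins, a single copy of each, so that cells keep the output of these genes closely matched. Their mRNAs are among the most abundant of animal cells, and in yeast stresses such as heat lower them together.

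Libraries held 11215696 to 19794446 counts on genes. The small heat-shock gene *hsp-16.2* was at most at 1.93 CPM (counts scaled to one common library size by the TMM factors of edgeR) in the 12 untreated libraries and at 126 to 882 CPM in the 12 heat-shocked ones. Levels of *hsf-1* were 137 ± 13.3 CPM in untreated N2 and 74.7 ± 26.8 CPM in untreated *hsf-1(sy441)* (SD, n = 3), against 148 ± 4.67 CPM in *hsf-1FL* and 153 ± 16.3 CPM in *hsf-1CTD*. Ribosomal RNA (rRNA) took 7.52% to 10.6% of counts in 5 untreated libraries (*hsf-1FL* 1 and 3, *hsf-1CTD* 1 and 2, *hsf-1(sy441)* 1), 0.280% to 2.21% in the other 7 untreated libraries and 0.603% to 1.59% in the heat-shocked ones. Genes of sperm took 0.159% and 0.181% of counts in untreated and heat-shocked *hsf-1(sy441)* replicate 3, and no more than 0.0565% in the other libraries, the next highest being *hsf-1FL* replicate 1 of both treatments and untreated *hsf-1(sy441)* replicate 2.

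The ribosomal protein genes were highly expressed. In untreated N2, the median gene of the 78 stood at 1420 CPM per kb of exon (1428 for the large subunit and 1321 for the small), with quartiles of 1092 and 1706. Of the 77 tested genes, 72 were among the 1% of tested genes with the highest level per length, at 588 CPM per kb or more. The 3 highest were *rpl-41.2* (2756 ± 541 CPM per kb, SD, n = 3), which encodes the smallest protein of the ribosome, *rps-25* (2357 ± 333) and *rpl-24.1* (2199 ± 130). The 3 lowest were *rpl-42* (0.0306 ± 0.0529), *rpl-37* (12.4 ± 7.23) and *rpl-24.2* (101 ± 6.52). For *rpl-24.2*, RefSeq gives the name *rsl-24D1*, a factor of ribosome assembly in yeast and mammals, and for *rpl-37* it gives *rpl-37.2*, with *rpl-37.1* at a gene that the WormBase names list as *W01D2.1*.

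**Figure D1:**
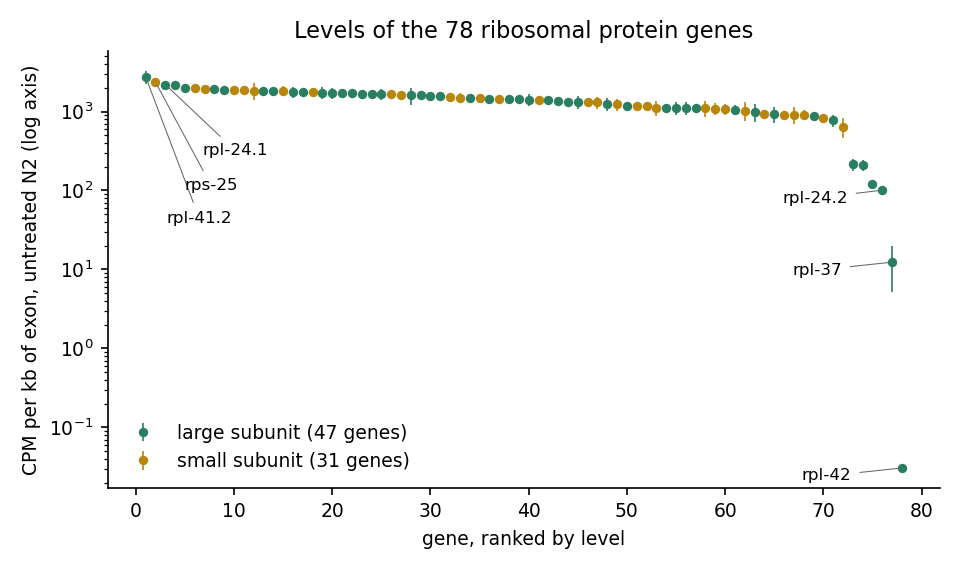
Level of each of the 78 ribosomal protein genes in untreated N2, in CPM per kb of exon on a log axis, ranked from high to low, as the mean of 3 replicates with SD bars (none is drawn for *rpl-42*). Most genes of both subunits lie on a plateau near the median of 1420, and *rpl-41.1*, *rpl-11.2*, *rpl-25.1*, *rpl-24.2*, *rpl-37* and *rpl-42* lie below it.

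The 78 genes were spread over all 6 chromosomes, with 23 on I, 10 on II, 18 on III, 17 on IV, 8 on V and 2 on X. The 2 X-linked genes were *rpl-11.2* and *rpl-25.1*, each of which has an autosomal copy. Only 4 pairs of ribosomal protein genes lay within 2000 bases of each other, 3 of them divergent. Divergent pairs were *rps-10* with *rpl-24.1*, *rps-14* with *rpl-36* and *rpl-39* with *rps-30*, while *rpl-41.1* and *rpl-41.2* followed each other on one strand.

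Together the 78 genes took 6.18 ± 0.896% of all counts in untreated libraries (SD, n = 12, range 4.95% to 7.77%) and 6.81 ± 1.04% in heat-shocked ones (n = 12, range 5.82% to 9.74%). In N2 the share was 6.35 ± 0.543% untreated and 6.98 ± 0.324% heat-shocked (SD, n = 3 each). In *hsf-1FL* it was 5.84 ± 1.01% and 6.72 ± 0.508%. In *hsf-1CTD* it was 5.86 ± 0.165% and 6.22 ± 0.520%, and in *hsf-1(sy441)* 6.69 ± 1.52% and 7.33 ± 2.1%. The treatments overlapped, and the highest share was that of heat-shocked *hsf-1(sy441)* replicate 3 (9.74%), the library highest in sperm genes. When rRNA counts were left out of the total, the untreated share was 6.45 ± 0.762% and the heat-shocked share 6.88 ± 1.06%.

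Each genotype was then compared between treatments gene by gene, by edgeR's quasi-likelihood F-test, with P adjusted by Benjamini-Hochberg over all 15256 (adjusted P < 0.01 for a call). Within a single genotype, heat-shock moved most ribosomal protein genes by little. In N2, 0 of 77 genes were called (0.669% of all genes tested), 7 had an unadjusted P under 0.05, and the median log2 fold change was 0.14, with 59 genes above 0. In *hsf-1FL*, 0 of 77 were called (0.819% of all genes), 8 had an unadjusted P under 0.05, and the median was 0.14, with 58 above 0. In *hsf-1CTD*, 0 of 77 were called (0.964%), 4 had an unadjusted P under 0.05, and the median was -0.13, with 29 above 0. In *hsf-1(sy441)*, 0 of 77 were called (1.72%), 7 had an unadjusted P under 0.05, and the median was 0.13, with 57 above 0. Over all tested genes the medians were 0.02, -0.03, -0.02 and 0.06.

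Counting genes whose 3 heat-shocked replicates all exceeded the 3 untreated ones in CPM, or all lay below them, was a choice made with the values known. In N2, 12 genes lay above and 0 below (8.52% and 6.46% of all tested genes). In *hsf-1FL*, 16 lay above and 0 below (12.2% and 13.5%). In *hsf-1CTD*, 4 lay above and 14 below (15% and 15.7%), and in *hsf-1(sy441)* 1 above and 0 below (10.7% and 9.65%).

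DESeq2 called 1 gene in N2 (*rps-17*), 1 in *hsf-1FL* (*rpl-41.1*) and 0 in the others. With one library left out at a time, the median kept its sign in N2, *hsf-1FL* and *hsf-1CTD*, and that of *hsf-1(sy441)* was -0.21 without heat-shocked replicate 3. Without the 5 libraries high in rRNA, the median was -0.07 in *hsf-1(sy441)*, -0.09 in *hsf-1FL* and 0.08 in *hsf-1CTD*, but in *hsf-1FL* and *hsf-1CTD* this left 1 untreated library each, taken to vary like the other groups.

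In each genotype the median log2 fold change was higher for the small subunit than for the large. It was 0.17 (small) against 0.11 (large) in N2, 0.19 against 0.11 in *hsf-1(sy441)*, 0.20 against 0.13 in *hsf-1FL* and 0.02 against -0.14 in *hsf-1CTD*. Of the 31 small subunit genes, 28, 26, 26 and 16 lay above 0 in these genotypes, and of the 46 tested large subunit genes 31, 31, 32 and 13 did. No test was run on these medians.

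The balance of the subunits was followed in each library as the log2 ratio of the summed large subunit counts to the summed small subunit counts, which does not depend on library size. In N2 the ratio was 0.595, 0.564 and 0.560 in the untreated replicates and 0.459, 0.458 and 0.468 in the heat-shocked ones. In *hsf-1FL* it was 0.558, 0.576 and 0.523 untreated and 0.463, 0.453 and 0.487 heat-shocked. In *hsf-1CTD* it was 0.558, 0.554 and 0.559 untreated and 0.489, 0.465 and 0.401 heat-shocked. The *hsf-1(sy441)* animals had the lowest means of both treatments, with 0.528, 0.517 and 0.543 untreated and 0.441, 0.421 and 0.417 heat-shocked.

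All 12 heat-shocked libraries (0.401 to 0.489) thus lay below all 12 untreated ones (0.517 to 0.595). The means were 0.553 ± 0.0223 untreated and 0.452 ± 0.0273 heat-shocked (SD, n = 12 each), and the differences by genotype were -0.11 in N2, -0.10 in *hsf-1(sy441)*, -0.08 in *hsf-1FL* and -0.11 in *hsf-1CTD*. The untreated libraries high in rRNA (0.523 to 0.558) lay within the range of the other untreated libraries. Without *rps-3*, *rps-17* and *rpl-43*, 3 genes chosen for their large changes, the differences were -0.08, -0.07, -0.05 and -0.06 in the same order, and the treatments overlapped (0.608 to 0.686 untreated, 0.523 to 0.626 heat-shocked). Without heat-shocked *hsf-1CTD* replicate 3 the difference of that genotype was -0.08.

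**Figure D2:**
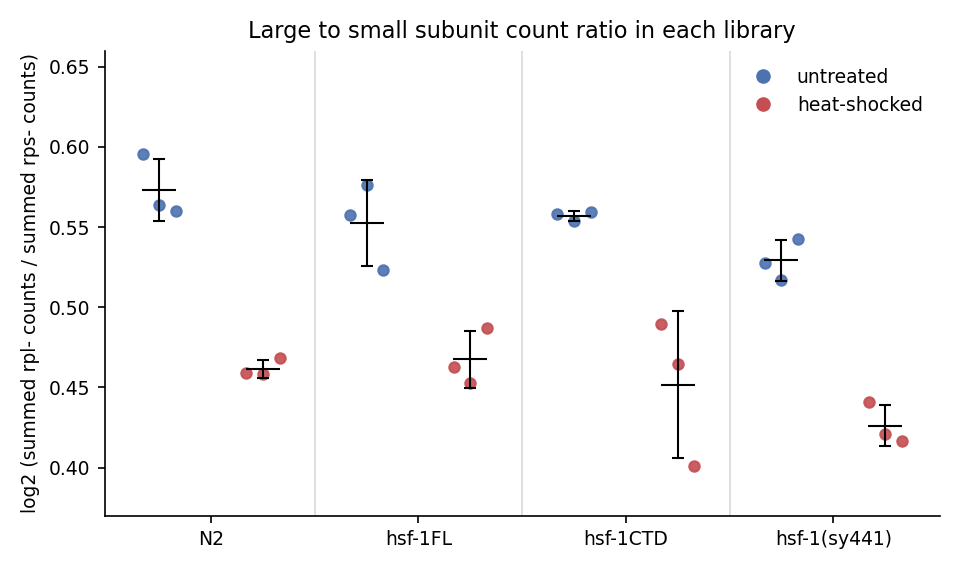
Log2 ratio of summed large subunit (rpl-) to summed small subunit (rps-) counts in each of the 24 libraries, by genotype and treatment, with points for libraries and the mean ± SD of 3 replicates. Every heat-shocked library (0.401 to 0.489) lies below every untreated library (0.517 to 0.595).

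To look at single genes with more replicates, the mean of the 4 heat-shock comparisons was taken from the same fit, a contrast chosen after the values were known. On the CPM scale, 9 of the 77 genes were called, a smaller share than the 16.4% of all tested genes. The count was 16 with replicate number as a block within each genotype and 15 with DESeq2, which called 3369 of all tested genes. Of the 9 genes, 8 rose (8.6% of all genes did) and 1 fell (7.76% of all genes did). The share of the group that rose was thus near that of all genes, and the share that fell was below it. Among those that rose, 7 encode small subunit proteins.

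The small subunit gene *rps-3* (chromosome III, 6206803 to 6207965, WBcel235), whose protein lines the entry of the mRNA channel, rose most. In N2 it stood at 1011, 1268 and 1111 CPM untreated and at 1439, 1731 and 1652 CPM heat-shocked. In *hsf-1FL* it stood at 1042, 1201 and 925 CPM untreated and at 1488, 1756 and 1534 CPM heat-shocked. In *hsf-1CTD* the values were 1195, 1175 and 977 CPM and then 1459, 1621 and 1604 CPM. In these 3 genotypes all heat-shocked replicates exceeded all untreated ones. In *hsf-1(sy441)* the untreated values of 1024, 1496 and 1332 CPM overlapped the heat-shocked values of 1467, 1685 and 2503 CPM. Averaged over genotypes, *rps-3* rose by 0.53 ± 0.090 on the log2 scale (SE, edgeR adjusted P = 1.84e-04), a fold of 1.45.

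*rps-17* (I, 6220093 to 6220764), another small subunit gene, rose by 0.48 ± 0.078 (adjusted P = 1.31e-04), a fold of 1.40. Its N2 values were 585, 728 and 670.2 CPM untreated and 988, 1070.3 and 926 CPM heat-shocked. In *hsf-1CTD* they were 703, 669 and 599 CPM against 812, 807 and 758 CPM. The replicates of the treatments overlapped in *hsf-1(sy441)* and in no other genotype. In the single genotypes its log2 fold change was 0.59 in N2 (adjusted P = 0.058), 0.54 in *hsf-1(sy441)* (0.050), 0.53 in *hsf-1FL* (0.076) and 0.27 in *hsf-1CTD* (0.43).

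The other genes that rose were *rpl-41.1* (0.39 ± 0.081, adjusted P = 0.0013), *rps-30* (0.37 ± 0.096, 0.0070), *rps-18* (0.36 ± 0.088, 0.0048), *rps-14* (0.36 ± 0.093, 0.0072), *rps-8* (0.35 ± 0.094, 0.0089) and *rps-20* (0.32 ± 0.086, 0.0095). *rps-30* makes its protein as a fusion with a ubiquitin-like protein, and the protein of *rps-14* is part of the platform of the small subunit. *rpl-14*, a large subunit gene, had a log2 fold change of 0.39 ± 0.112 and was not called (adjusted P = 0.014).

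The single gene that fell was *rpl-43* (II, 14155294 to 14155569; *rpl-37A* in RefSeq), which encodes a zinc-binding protein of the large subunit in yeast and mammals. Its N2 values were 342, 558 and 440.4 CPM untreated and 276, 398 and 364 CPM heat-shocked, and these overlapped. In *hsf-1CTD* they were 471, 443 and 393 CPM untreated and 266, 243 and 273 CPM heat-shocked, without overlap. Averaged over genotypes it changed by -0.48 ± 0.127 (adjusted P = 0.0075). *rpl-39* (V, 7775742 to 7776079), whose protein lines the exit tunnel, had a value of -0.33 ± 0.104 and *rpl-9* one of -0.27 ± 0.107, neither of them called (adjusted P = 0.025 and 0.068).

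How many genes were called on the CPM scale depended on single libraries. Leaving out one library at a time gave 3 to 12 calls, with 3 without untreated N2 replicate 3, untreated *hsf-1FL* replicate 1 or heat-shocked *hsf-1FL* replicate 2. There were 4 or 5 calls without N2 HS 2 or 3, *hsf-1FL* UT 3 or HS 1, *hsf-1CTD* UT 1, 2 or 3 or HS 2 or 3, or *hsf-1(sy441)* UT 1 or 3. *rps-3*, *rps-17* and *rpl-41.1* were called in all 24 of these refits, whereas *rpl-43* was called in 6, *rps-18* in 18, *rps-14* in 10, *rps-30* in 9, *rps-8* in 5 and *rps-20* in 5. Without the 5 libraries high in rRNA, 2 genes were called.

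Because the levels of most ribosomal protein genes varied together over the libraries, each gene was also measured against the total of the group, with library size set to the summed counts of the 78 genes. This scale was likewise chosen with the values known. It is compositional, so that values above 0 for some genes force values below 0 for others, and the median of all tested genes was shifted to -0.10. On it, 21 of the 77 genes were called (12.2% of all genes), 8 higher (3.79% of all genes) and 13 lower (8.37%). The scale removes variation that the group shares and adds it to genes that do not follow the group. The SE fell for *rps-3* from 0.090 to 0.048 and for *rpl-9* from 0.107 to 0.056. It rose for *hsf-1* from 0.104 to 0.158, and within the group for *rpl-41.1* from 0.081 to 0.109. The shares of all genes are thus not a like background for the group on this scale. In the large subunit 1 of 46 genes was higher and 11 were lower, and in the small subunit 7 of 31 were higher and 2 were lower.

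The 8 genes that rose relative to the group were *rps-3* (0.42 ± 0.048, adjusted P = 1.79e-06), *rps-17* (0.37 ± 0.066, 2.86e-04), *rpl-14* (0.28 ± 0.062, 0.0026), *rps-30* (0.26 ± 0.052, 0.0011), *rps-14* (0.25 ± 0.056, 0.0025), *rps-18* (0.24 ± 0.052, 0.0016), *rps-9* (0.23 ± 0.052, 0.0028) and *rps-0* (0.20 ± 0.049, 0.0061). *rps-9* and *rps-0* encode proteins of the small subunit.

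The largest falls relative to the group were those of *rpl-43* (-0.59 ± 0.067, adjusted P = 1.75e-06), *rpl-39* (-0.44 ± 0.064, 3.50e-05) and *rpl-9* (-0.39 ± 0.056, 3.10e-05). The other large subunit genes that fell on this scale were *rpl-30*, *rpl-28*, *rpl-7A*, *rpl-20*, *rpl-38*, *rpl-32*, *rpl-34* and *rpl-31*, with changes between -0.31 and -0.22. The small subunit genes that fell were *rps-2* (-0.26 ± 0.064) and *rps-22* (-0.24 ± 0.052). *rps-3*, *rpl-43*, *rpl-39* and *rpl-9* were called in all 24 refits without one library and under all 9 other settings run on this scale. Of the other genes named here, *rps-0* was called in 12 of these refits, *rps-2* in 14, *rpl-31* in 22 and the rest in all 24, while no more than 7 of the 9 other settings called any of them. Without the 5 libraries high in rRNA 4 of the 77 genes were called.

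**Figure D3:**
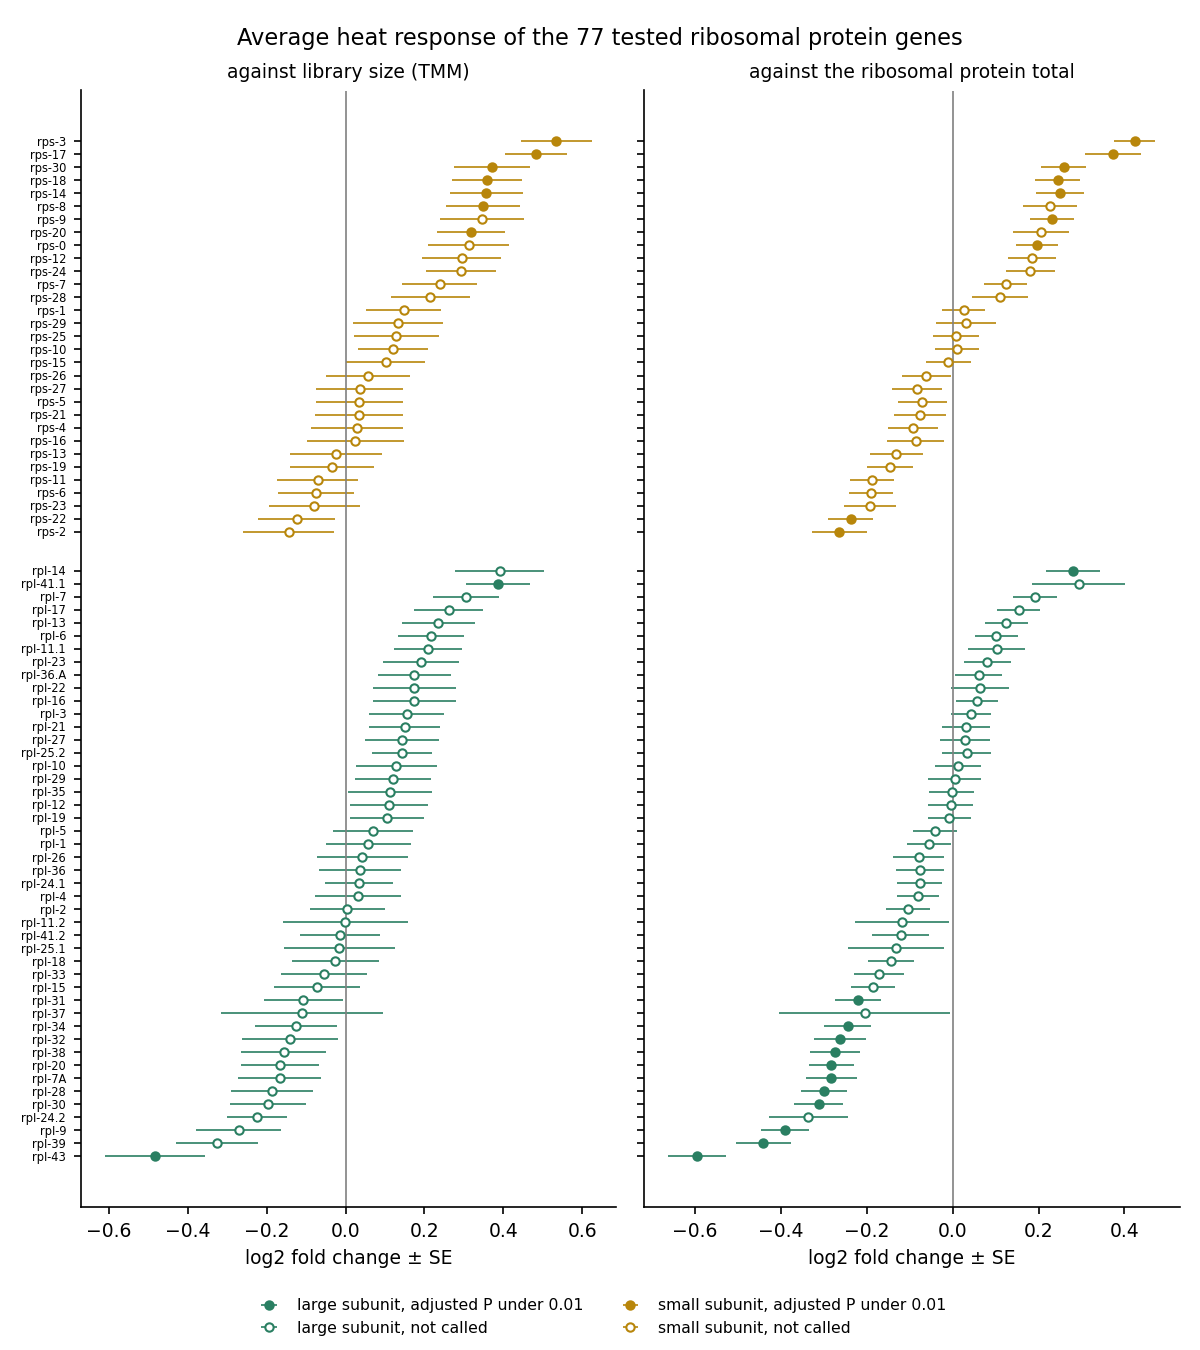
Log2 fold change (± SE) of the 77 tested ribosomal protein genes averaged over the heat-shock comparisons of 4 genotypes, ranked within each subunit, on the CPM scale (left) and relative to the ribosomal protein total (right), with filled points for adjusted P < 0.01. Of 9 calls on the left 8 lie above 0, and of 21 on the right 8 lie above 0 and 13 below, the extremes being *rps-3* and *rpl-43* on both.

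The counts of single genes as a share of the summed ribosomal protein counts show the same genes library by library. *rps-3* held 1.77% to 1.93% of these counts in the 12 untreated libraries (lowest to highest) and 2.25% to 2.72% in the 12 heat-shocked ones. *rps-17* held 0.997% to 1.21% untreated and 1.22% to 1.63% heat-shocked. *rpl-43* held 0.597% to 0.832% untreated and 0.408% to 0.529% heat-shocked. The treatments did not overlap for any of these genes. *rpl-39* went from 0.577% to 0.711% untreated to 0.431% to 0.560% heat-shocked, and *rpl-9* from 1.37% to 1.51% to 0.981% to 1.22%, also without overlap.

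In all, 7 of 77 genes had a higher share in every heat-shocked than in every untreated library (0.623% of all tested genes did, on the same measure), and all 7 were of the small subunit: *rps-0*, *rps-3*, *rps-9*, *rps-12*, *rps-17*, *rps-18* and *rps-30*. A lower share in every heat-shocked library was found for 10 genes (1.19% of all tested genes), 8 of the large subunit (*rpl-7A*, *rpl-9*, *rpl-20*, *rpl-28*, *rpl-31*, *rpl-34*, *rpl-39*, *rpl-43*) and 2 of the small (*rps-6*, *rps-22*). *rps-6*, whose protein is the classic substrate of S6 kinase, held 1.72% to 2.09% untreated and 1.52% to 1.68% heat-shocked. These genes were named through this count after their values were seen. As for the calls on this scale, the shares of all tested genes are not a like background for the group. On the CPM scale 0 genes were separated in this way in either direction (1.09% of all tested genes above and 0.531% below).

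**Figure D4:**
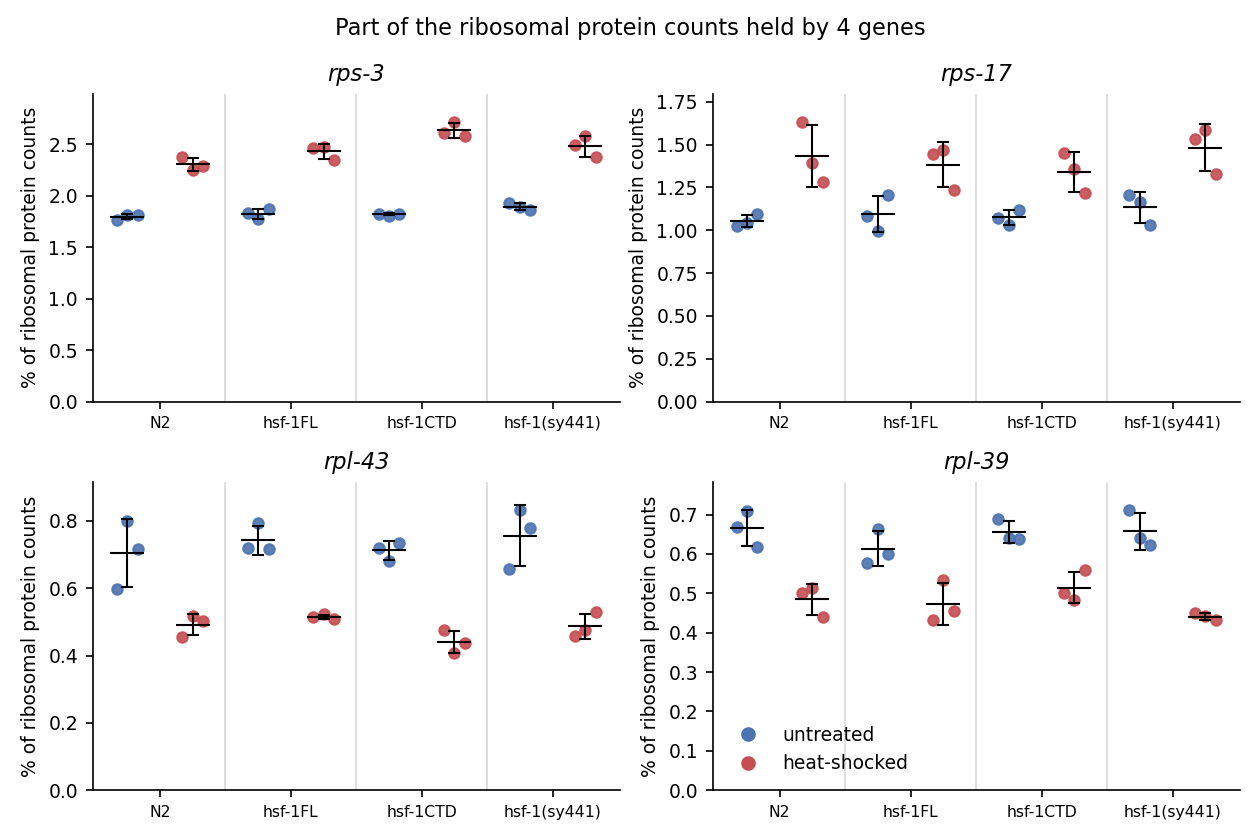
Share of the summed ribosomal protein counts held by *rps-3*, *rps-17*, *rpl-43* and *rpl-39*, in %, in each of the 24 libraries by genotype and treatment, with points for libraries and the mean ± SD of 3 replicates. In each genotype the heat-shocked points of *rps-3* (2.25% to 2.72%) and *rps-17* lie above the untreated points and those of *rpl-43* (0.408% to 0.529%) and *rpl-39* below them.

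Relative to the group total, single genotypes gave few calls, and the shares of all genes are again not a like background. In *hsf-1CTD*, *rps-3* rose by 0.53 ± 0.096 (adjusted P = 0.0034) and *rpl-43* changed by -0.69 ± 0.135 (0.0066), with 0.747% of all genes called. In *hsf-1(sy441)*, *rpl-43* changed by -0.63 ± 0.135 (adjusted P = 0.0092), with 1.37% of all genes called. In N2 and *hsf-1FL* edgeR called 0 of 77 (0.557% and 1.07% of all genes). There 19 and 16 genes had an unadjusted P under 0.05, beside 1476 and 1998 of all 15256. On this scale the medians of all tested genes were -0.13 in N2, -0.09 in *hsf-1(sy441)*, -0.22 in *hsf-1FL* and 0.01 in *hsf-1CTD*. For *rps-3* the values in N2 and *hsf-1FL* were 0.36 ± 0.096 and 0.41 ± 0.096, and for *rpl-43* -0.52 ± 0.134 and -0.53 ± 0.135.

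The 4 heat-shock comparisons share no library, and their log2 fold changes on the CPM scale were alike across the 77 genes, with Pearson's r between 0.83 and 0.92 over the 6 pairs of genotypes. This is a description across genes, which are not independent replicates. The test of the difference, an interaction of each genotype with N2, called 0 of 77 genes for each of the other genotypes (0% of all tested genes each). In these tests 0 of 77 had an unadjusted P under 0.05 in any genotype, and DESeq2 also called 0. The SE of the difference was 0.25 for *rps-3* and 0.36 for *rpl-43* in each comparison. Differences of several SEs could be missed as well. In N2, a heat-shock change of 0.59 ± 0.157 in *rps-17* was not called (edgeR adjusted P = 0.058). The median difference of the genes was -0.22 for *hsf-1CTD*, 0.02 for *hsf-1FL* and 0.00 for *hsf-1(sy441)*, beside -0.05, -0.04 and 0.02 for all tested genes. For *hsf-1CTD*, 75 of 77 genes lay below 0. Without the 5 libraries high in rRNA, the median was -0.02, with a single untreated *hsf-1CTD* library left.

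Between genotypes of one treatment, no ribosomal protein gene was called. In untreated animals the median log2 fold change against N2 was 0.11 in *hsf-1(sy441)* (67 of 77 above 0), -0.11 in *hsf-1FL* (4 above 0) and -0.04 in *hsf-1CTD*. The numbers called were 0 of 77 in each, beside 0.610%, 0.0197% and 0.0197% of all tested genes. An unadjusted P under 0.05 was found for 3, 0 and 0 genes, beside 4516, 1135 and 183 of all 15256. DESeq2 called 1 (*rpl-11.2*), 0 and 0, beside 1126, 86 and 13 of all tested genes. The 3 comparisons share the untreated N2 libraries.

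In heat-shocked animals the median against N2 was 0.13 in *hsf-1(sy441)* (72 of 77 above 0), -0.09 in *hsf-1FL* (2 above 0) and -0.25 in *hsf-1CTD* (1 above 0). Here too 0 of 77 were called in each, beside 0.891%, 0.0197% and 0.0131% of all tested genes. An unadjusted P under 0.05 was found for 3, 0 and 2, beside 3820, 968 and 564 of all 15256. DESeq2 called 0 in each, beside 1025, 15 and 14 of all tested genes. These comparisons share the heat-shocked N2 libraries. Both medians of *hsf-1(sy441)* changed sign in a fit with surrogate variables (-0.28 untreated and -0.21 heat-shocked) and without the 5 libraries highest in sperm genes (-0.20 and -0.19, with only replicate 1 left among the untreated), and the heat-shocked one also without replicate 3 of that group (-0.20).

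Some ribosomal proteins have 2 gene copies in the worm. Pairs of genes whose symbols share a number were followed as a share of the counts of the pair. *rpl-24.1* took 95.1 ± 0.531% of its pair with *rpl-24.2* in untreated and 95.9 ± 0.489% in heat-shocked libraries (SD, n = 12 each). RefSeq names *rpl-24.2* after an assembly factor, so this pair may not be 2 copies of one protein. *rpl-41.1*, the minor copy of a pair 699 bases apart, took 5.18 ± 0.672% untreated and 6.77 ± 1.117% heat-shocked. Its N2 levels were 37.4, 44.2 and 38.3 CPM untreated and 49.1, 53.7 and 48.2 CPM heat-shocked, and in *hsf-1FL* 34.5, 42.5 and 36.99 CPM against 50.6, 71.4 and 55.2 CPM. Neither genotype had an overlap. The log2 fold change of *rpl-41.1* in *hsf-1FL* was 0.64 ± 0.162 (adjusted P = 0.036), and with replicate number as a block it was called (0.63 ± 0.115, adjusted P = 0.0047). *rpl-41.2*, the major copy, had an average change of -0.01 ± 0.101 (adjusted P = 0.94). How reads shared by near-identical copies were counted is not given in the sources used here, so values of these pairs carry that uncertainty.

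The pairs with an X-linked copy differed between *hsf-1(sy441)* and the other genotypes. *rpl-11* proteins bind the shortest rRNA of the large subunit, and *rpl-25* proteins sit at the exit of the tunnel. The X-linked *rpl-11.2* (2241738 to 2242618) took 20.5%, 30.1% and 35.6% of its pair in untreated *hsf-1(sy441)* and 12.9% to 17.5% in the 9 other untreated libraries. Heat-shocked *hsf-1(sy441)* libraries had 18.9%, 22.7% and 36.0%, and the 9 other heat-shocked ones 9.97% to 20.0%, overlapping through N2 replicate 1. The X-linked *rpl-25.1* (4715178 to 4715796) took 18.6%, 23.5% and 27.2% in untreated *hsf-1(sy441)*, above the 11.4% to 16.22% of the other genotypes. In heat-shocked *hsf-1(sy441)* it took 16.7%, 18.3% and 25.9%, beside 9.75% to 17.2%, overlapping through N2 replicate 1.

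In CPM, *rpl-11.2* stood at 138, 184 and 139 in untreated N2 and at 181, 402 and 394 in untreated *hsf-1(sy441)*, so that replicate 1 lay within the range of N2. The log2 fold change was 1.08 ± 0.323 untreated (adjusted P = 0.045) and 1.01 ± 0.322 heat-shocked (0.063), and that of *rpl-25.1* was 0.83 ± 0.284 (0.065) and 0.80 ± 0.283 (0.088). None passed the threshold in edgeR. DESeq2 called *rpl-11.2* in untreated animals (1.14, adjusted P = 0.0085). With surrogate variables the values of *rpl-11.2* were 0.15 untreated and 0.16 heat-shocked, and without the 5 libraries highest in sperm genes 0.27 and 0.36, where replicate 1 was the only untreated *hsf-1(sy441)* library left. Without heat-shocked *hsf-1(sy441)* replicate 3 the heat-shocked value was 0.35.

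Marker lists of tissues were also compared between untreated *hsf-1(sy441)* and untreated N2, and some but not all of them differed. The 19 listed oocyte and germ line genes took 0.928% to 1.38% of counts in untreated *hsf-1(sy441)* and 1.53% to 1.75% in untreated N2. The 56 listed sperm genes, of which 3 were at 0 in every library, took 0.00450% to 0.159% and 0.000695% to 0.00202%. The 4 listed cuticle genes took 0.395% to 0.628% and 0.187% to 0.348%. The ranges overlapped for the listed yolk genes of the intestine (10.6% to 11.7% and 9.68% to 13.8%) and for the neuron genes (0.0257% to 0.0295% and 0.0263% to 0.0394%). In untreated *hsf-1FL* replicates 1, 2 and 3, sperm genes took 0.0565%, 0.0163% and 0.00684%. There *rpl-11.2* held 17.5%, 14.1% and 12.9% of its pair, in the same replicate order. In untreated *hsf-1(sy441)* the sperm shares were 0.00450%, 0.0459% and 0.159%, and *rpl-11.2* held 20.5%, 30.1% and 35.6%. Within each of these genotypes, the untreated replicates thus had one order in both shares. In untreated N2 and untreated *hsf-1CTD* the orders differed. The part of these tissues in the copy balance was not tested.

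**Figure D5:**
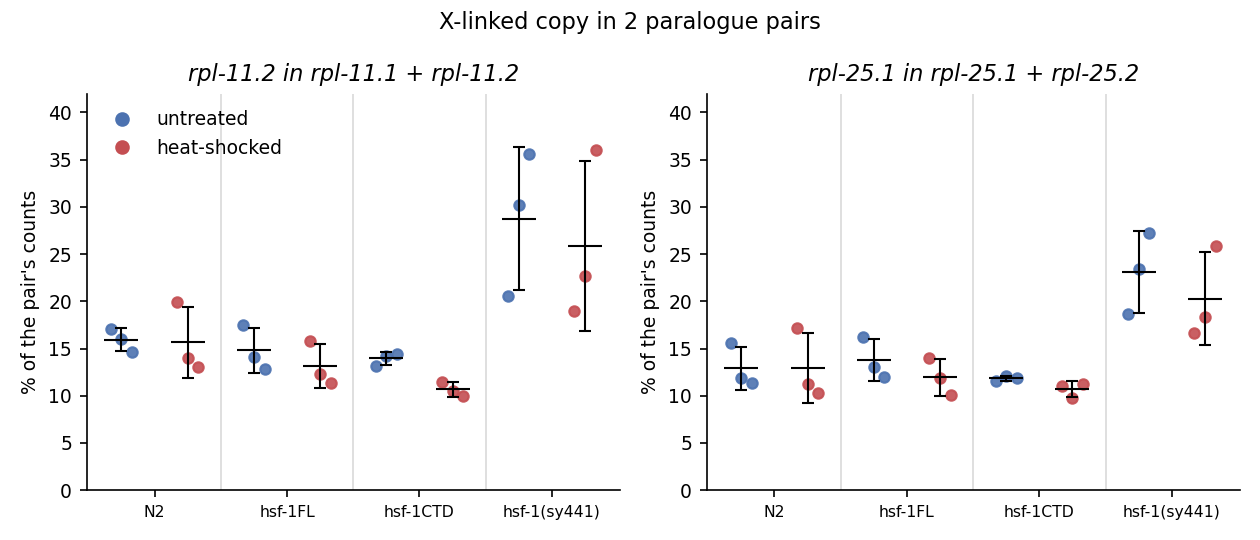
Share of the pair's counts held by the X-linked copy, *rpl-11.2* (left) and *rpl-25.1* (right), in %, in each of the 24 libraries by genotype and treatment, with points for libraries and the mean ± SD of 3 replicates. The *hsf-1(sy441)* libraries reach 36.0% and 27.2%, and the other genotypes stay at or under 20.0% and 17.2%.

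Neighbouring genes of the group did not share one value. *rpl-39* and *rps-30* lie head to head with 498 bases between them on chromosome V, and on the average over genotypes *rpl-39* had a log2 fold change of -0.33 and *rps-30* of 0.37. For the divergent pair *rps-14* and *rpl-36*, 662 bases apart, the values were 0.36 and 0.04, and for *rps-10* and *rpl-24.1*, 609 bases apart, they were 0.12 and 0.03. Gene length had a weak relation to the average heat response across the 77 genes (Pearson's r = 0.18, across genes). It was 0.28 in the large subunit and 0.00 in the small. For mean level in CPM, Spearman's rho was 0.33 across the 77 genes, 0.44 in the large subunit and 0.15 in the small. In both length classes, up to and over the median of 530 bases of exon, the median was higher for the small subunit (0.12 and 0.19) than for the large (-0.02 and 0.06).

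Genes outside the group were ranked by how closely their levels followed it. Those most like the mean log2 CPM of its 77 tested genes over 24 libraries were *rla-0* (a P stalk protein, Pearson's r = 0.943) and *Y37E3.8* (*rpl-27A* in RefSeq, 0.940). The next of the 5 highest were *ubq-2* (0.930), *ubl-1* (0.924) and *pab-1* (the poly(A)-binding protein, 0.918). *ubq-2* and *ubl-1* encode fusions of ubiquitin or a ubiquitin-like protein with a ribosomal protein. These correlations describe libraries that share depth and composition. Of the 6 listed ribosome proteins outside the rule, 0 were called in the average heat response on the CPM scale, with a median of 0.17. Against the ribosomal protein total, *rack-1*, a scaffold on the small subunit, changed by -0.30 ± 0.057 (adjusted P = 5.42e-04), and *W01D2.1* by -0.27 ± 0.058 (0.0016).

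The rest of the translation machinery was read from lists, as counts beside the background of the average heat response. Of all tested genes 16.4% were called in it, 8.6% up and 7.76% down. Of 20 cytosolic tRNA synthetases, 7 rose and 0 fell (median 0.21), among them *sars-1* (0.45 ± 0.056), *nars-1* (0.41 ± 0.066) and *ears-1* (0.38 ± 0.066). Of 23 ribosome biogenesis genes, 7 rose and 0 fell (median 0.18), including *rpoa-1* and *rpoa-2*, the large subunits of RNA polymerase I, at 0.85 ± 0.130 and 0.26 ± 0.069. Of 35 initiation factors 5 rose and 1 (*eif-2D*) fell (median 0.04), and of 8 elongation and release factors 0 were called (median 0.06), as were 0 of the 2 nascent chain factors (0.19). Of 70 mitochondrial ribosomal proteins 32 rose and 0 fell (median 0.22), with *mrpl-4* called in each genotype, at 0.55 in N2 and *hsf-1FL* and at 0.69 in *hsf-1CTD* and *hsf-1(sy441)*.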

How the data were processed

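RNA of 24 samples was sequenced by the authors, who trimmed reads with Trim Galore 0.6.7-1, aligned them to WBcel235 with STAR 2.7.10a and counted them on genes of annotation release 107 with featureCounts of Subread 2.0.3. The deposited values are raw counts of reads per gene, without normalization. Strand and multi-mapping settings are not given in the sources used here. All columns of counts were matched to a sample by name (0 unmatched).

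In R 4.3.3, the 15256 genes that reached 10 counts in 3 or more libraries were fitted with edgeR 4.0.16 (limma 3.58.1), TMM factors (0.896 to 1.10) and a mean for each of 8 conditions. Quasi-likelihood F-tests were adjusted with Benjamini-Hochberg, at adjusted P < 0.01, in 13 contrasts. SEs are the absolute log2 fold change over the square root of F. The average heat-shock contrast and the scale of the ribosomal protein total were chosen with the values known. The group and the gene lists were chosen with earlier results of these data known. Named genes were those called, genes whose symbols share a number, and the 3 highest and 3 lowest in level and in mean heat response. Also named were the 5 most alike genes outside the group, list members called, *hsf-1* and *hsp-16.2*. Those noted as named after their values were seen come in addition. For contrasts with over 12 calls the rule keeps the 6 lowest adjusted P in each direction; the added contrast is listed in full.

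Replicate numbers pair samples where every same-numbered pair deviated together (r over 0.1): in N2 (0.316 to 0.589), *hsf-1FL* (0.265 to 0.623) and *hsf-1(sy441)* (0.246 to 0.813) between treatments, but not in *hsf-1CTD* (-0.0475 to 0.272). Against N2 they did so for untreated *hsf-1FL* (0.192 to 0.328) and for heat-shocked *hsf-1FL* (0.299 to 0.561) and *hsf-1CTD* (0.246 to 0.494). No replicates were copies (chi-square per degree of freedom 9.28 to 178). Alternatives used DESeq2 1.42.0, sva 3.50.0 (3 surrogate variables), other scalings, filters and left-out libraries. Figures used Python 3.11.15, numpy 2.4.6, pandas 2.3.3 and matplotlib 3.10.9.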

Additional observations from a re-analysis of the deposited data

How the results depend on the processing

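Counts of ribosomal protein genes called moved with the test and with scaling. For heat-shock within a genotype, where edgeR called 0, surrogate variables gave 2 in *hsf-1(sy441)*, 2 in *hsf-1CTD* and 1 in N2; DESeq2 gave 1 in N2 and 1 in *hsf-1FL*; DESeq2 with surrogate variables gave 5 in *hsf-1(sy441)*, 5 in *hsf-1CTD*, 3 in *hsf-1FL* and 2 in N2. An adjusted P under 0.05 gave 1 in *hsf-1FL* and 1 in *hsf-1(sy441)*. A fit of the compared groups alone gave 1 in *hsf-1CTD*, beside 190 of all tested genes. Against N2, untreated *hsf-1(sy441)* gave 1 with DESeq2 (1126 of all tested genes) and 1 at an adjusted P under 0.05. Heat-shocked *hsf-1CTD* gave 2 with DESeq2 and surrogate variables (101 of all tested genes). With the replicate block, and with a block within each genotype, *hsf-1FL* gave 1 call; the average heat response gave 11 and 16, and relative to the ribosomal protein total 26 and 24, beside 9 and 21. No other count of calls changed under a block by over 1.5 times. The average gave 4 with upper quartile scaling, 4 with a minimum of 10 counts in every library, 16 with surrogate variables (8 up, 8 down), 15 with DESeq2, 19 with both, 2 without the 5 libraries high in rRNA and 18 at an adjusted P under 0.05. Relative to the ribosomal protein total it gave 4 without the filter, 35 with DESeq2, 36 with DESeq2 and surrogate variables, 4 without the libraries high in rRNA and 33 at an adjusted P under 0.05. Calls over all tested genes also rose under these settings. In the average on the CPM scale they were 2496 in the main fit and 2915 with the replicate block. They were 4133 with surrogate variables, 3369 with DESeq2 and 4826 with both. Leaving out one library gave 0 calls in every single contrast, 3 to 12 in the average and 18 to 29 relative to the total. The subunit ratio taken from median log2 CPM differed by -0.24 in N2, -0.22 in *hsf-1(sy441)*, -0.24 in *hsf-1FL* and -0.16 in *hsf-1CTD*, with the treatments just overlapping (untreated down to -0.226, heat-shocked up to -0.225); without *rps-3*, *rps-17* and *rpl-43* by -0.0783, -0.0669, -0.0500 and -0.0631; in *hsf-1FL* without the libraries high in rRNA, with 1 untreated library left, by -0.11. With one library left out it ranged from -0.118 to -0.100 in N2, -0.110 to -0.0962 in *hsf-1(sy441)*, -0.0994 to -0.0730 in *hsf-1FL* and -0.124 to -0.0798 in *hsf-1CTD*. The median heat response ranged likewise from 0.06 to 0.24, -0.21 to 0.30, 0.05 to 0.28 and -0.20 to -0.06, and the average from 0.00 to 0.11; surrogate variables put the average at -0.04. The causes of these changes were not tested. A fit of the compared groups alone was not run for the average, nor a block within genotype for comparisons between genotypes.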
